A study of Homo sapiens with 8 samples.

Results

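The NRF2 antioxidant and glutathione genes described here were chosen by symbol and are 9 members of this pathway: NFE2L2, KEAP1, SLC7A11, GCLC, GCLM, TXNRD1, SRXN1, HMOX1 and NQO1. Each was taken from the array row that carried its symbol alone, or from the row with the highest mean over the 8 arrays where there were several, and all 9 were found among 22109 genes. They were measured in MDA-MB-231, a human triple-negative breast cancer cell line of mesenchymal character, from total RNA hybridised to Affymetrix Human Gene 2.1 ST arrays. The 8 arrays comprised 3 of untreated cells (control), 3 of cells at a low dose and 2 of cells at a high dose of a plant preparation, after 24 h. The titles and the treatment protocol name a root extract of wild yam (Dioscorea villosa), 15 µg/mL as low and 30 µg/mL as high, described as sublethal. The source names and treatment fields of the same arrays instead assign the low arrays 128 µg/mL of an extract of Boswellia serrata, and the high arrays 46 µg/mL of a single compound, 3-O-acetyl-β-boswellic acid. What the treated cells received is therefore unsettled, and "low" and "high" serve as group names. The crude extract was dissolved in ethanol per the protocol, whereas the controls are labelled as untreated, so an effect of the solvent cannot be told apart from that of the treatment. The labels do not say that the replicates were separate cultures, so the p-values measure the spread between these samples, which may be technical.

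NRF2, the product of NFE2L2, is a transcription factor that KEAP1 holds in check: KEAP1 binds it and presents it to a ubiquitin ligase, so that it is degraded in unstressed cells. Electrophiles and oxidants modify cysteines of KEAP1, NRF2 then escapes degradation, pairs with a small MAF protein and binds antioxidant response elements in its target genes. This control acts largely on the protein, which arrays do not measure. Among the targets, SLC7A11 imports cystine, GCLC and GCLM make up the ligase of the first step of glutathione synthesis, TXNRD1 and SRXN1 keep thioredoxin and peroxiredoxins reduced, NQO1 reduces quinones and HMOX1 breaks down heme. HMOX1 is also regulated by other stress pathways and by the repressor BACH1.

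The core of the antioxidant response element, TGACNNNGC, was searched on both strands of the 250 bases before each RefSeq start site (GRCh38.p14), because it is the sequence through which NRF2 is known to act. Promoter sequences were on hand for 7 of the 9 members, all but HMOX1 and SLC7A11, with 10 start sites in all. The core was found before 4 start sites of 3 members, GCLM, TXNRD1 and KEAP1. It was present before 10.9% of 35116 start sites of all genes in the same window. The upstream sequences of GCLM and TXNRD1 follow, to show where the core lies in members of the glutathione and thioredoxin arms. They are written 5′ to 3′ on the strand of the gene, with the core in capitals.
GCLM (chr1:93909431-93909680, - strand): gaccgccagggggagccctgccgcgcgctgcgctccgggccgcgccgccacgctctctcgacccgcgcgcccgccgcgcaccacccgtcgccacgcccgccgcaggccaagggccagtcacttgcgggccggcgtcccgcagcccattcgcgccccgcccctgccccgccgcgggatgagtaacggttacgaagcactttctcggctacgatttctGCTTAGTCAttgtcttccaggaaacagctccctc
TXNRD1, outer start (chr12:104215529-104215778, + strand): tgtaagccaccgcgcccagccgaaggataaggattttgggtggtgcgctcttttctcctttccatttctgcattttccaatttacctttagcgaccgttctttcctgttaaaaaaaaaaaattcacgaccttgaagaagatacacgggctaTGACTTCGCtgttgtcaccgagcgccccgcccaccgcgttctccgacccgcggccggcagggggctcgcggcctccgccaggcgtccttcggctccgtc
TXNRD1, inner start (chr12:104286782-104287031, + strand): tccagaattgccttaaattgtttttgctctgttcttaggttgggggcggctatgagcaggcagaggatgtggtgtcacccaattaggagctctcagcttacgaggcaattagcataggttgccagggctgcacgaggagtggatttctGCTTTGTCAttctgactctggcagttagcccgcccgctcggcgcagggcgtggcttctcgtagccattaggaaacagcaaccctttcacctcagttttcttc
In GCLM the match was GCTTAGTCA, which reads as the core on the opposite strand, and it began 34 bases before the start. TXNRD1 had TGACTTCGC beginning 99 bases before its outer start and GCTTTGTCA beginning 102 bases before its inner start. Before 1 of its 2 start sites KEAP1 had TGACACGGC and GCTTAGTCA, beginning 54 and 31 bases before that start, and no 2 matches overlapped. The letters of the core were not in this window of GCLC, NQO1, SRXN1 or NFE2L2. Sequence farther from the starts was not searched, so this absence holds for these 250 bases only. These matches describe the sequence and were not tested for binding.

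The deposited values are log2 expression values per probe set, with a range from -0.003 to 12.10 in the whole table. A level of 1 gene cannot be set against that of another on such arrays. The markers of the line were therefore checked only as a rough guide: VIM, the mesenchymal intermediate filament, had 8.68 to 9.10 and the adhesion receptor CD44 7.63 to 8.85. Of the genes planned as low, the estrogen receptor gene ESR1 had 1.60 to 2.18, the progesterone receptor gene PGR 1.17 to 1.65 and FOXA1 1.62 to 2.37. GATA3 had 2.44 to 3.31, CDH1 2.85 to 3.33 and the epithelial gene EPCAM 4.40 to 5.58. CDH1 and EPCAM thus lay above the median gene level of 2.75 on every array, against the plan. The 6 measured markers of leukocytes, endothelium, erythroid cells and liver lay between 0.87 and 2.63 on every array, and none was called in any comparison. On 3 arrays, namely control 3, low 3 and high 2, values ran lower: their 75th percentiles over genes were 4.73, 4.54 and 4.54, against 4.80 to 4.94 on the other arrays. All 9 members had their lowest value of the group on these arrays, in control 3, in low 3 and in high 2. Over all genes the shares with the lowest value there were 46.9%, 60.1% and 64.2%, and among genes above the median level, to which all 9 members belong, 58.6%, 84.4% and 79.8%. The part of these arrays in the results below was not tested, and the main counts of members are also given without them. In bulk RNA a change in the share of cells that express a gene and a change of RNA per cell cannot be told apart.

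At the low dose 3 of the 9 members, HMOX1, GCLC and SLC7A11, rose against the controls, and none fell. For comparison, 1.19% of all 22109 genes were called higher and 1.81% lower. At the high dose HMOX1 and SLC7A11 rose (2 of 9, against 0.425% of all genes called higher) and again none of the 9 fell (0.389% of all genes called lower). The median log2 change of the members was 0.59 at the low dose and 0.25 at the high dose, where the medians over all genes were -0.04 and -0.12. Subtracting the 75th percentile of each array moved the high-dose median over all genes to 0.07 and that of the members to 0.44. Both comparisons rest on the same 3 controls. The members were chosen with earlier results of these data known, so the values over all genes are a background and not a test of the members as a set. Calls here are limma tests whose p, after Benjamini-Hochberg adjustment across all genes, lay under 0.05. All low arrays lay above all controls in 7 of the 9 members and below them in 1, KEAP1, beside 7.03% and 13.0% of all genes. All high arrays lay above all controls in 5 members and below them in KEAP1, beside 7.07% and 22.9% of all genes. The shares of all genes called, given above, belong to the main fit. None is set beside the counts of the alternative fits that follow, so a higher count there does not show a stronger response. With those 3 arrays left out, 5 members rose at the low dose (GCLM and TXNRD1 besides those 3). The high group is then 1 array, assumed to vary like the control and low arrays, and in that fit HMOX1, SLC7A11 and GCLC were called higher and NQO1 lower. The low-dose count was 1 without control 1, low 1 or low 2, and the high-dose count was 0 without high 1 or high 2, 1 without control 1, control 2 or any low array, and 3 without control 3.

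**Figure D1:**
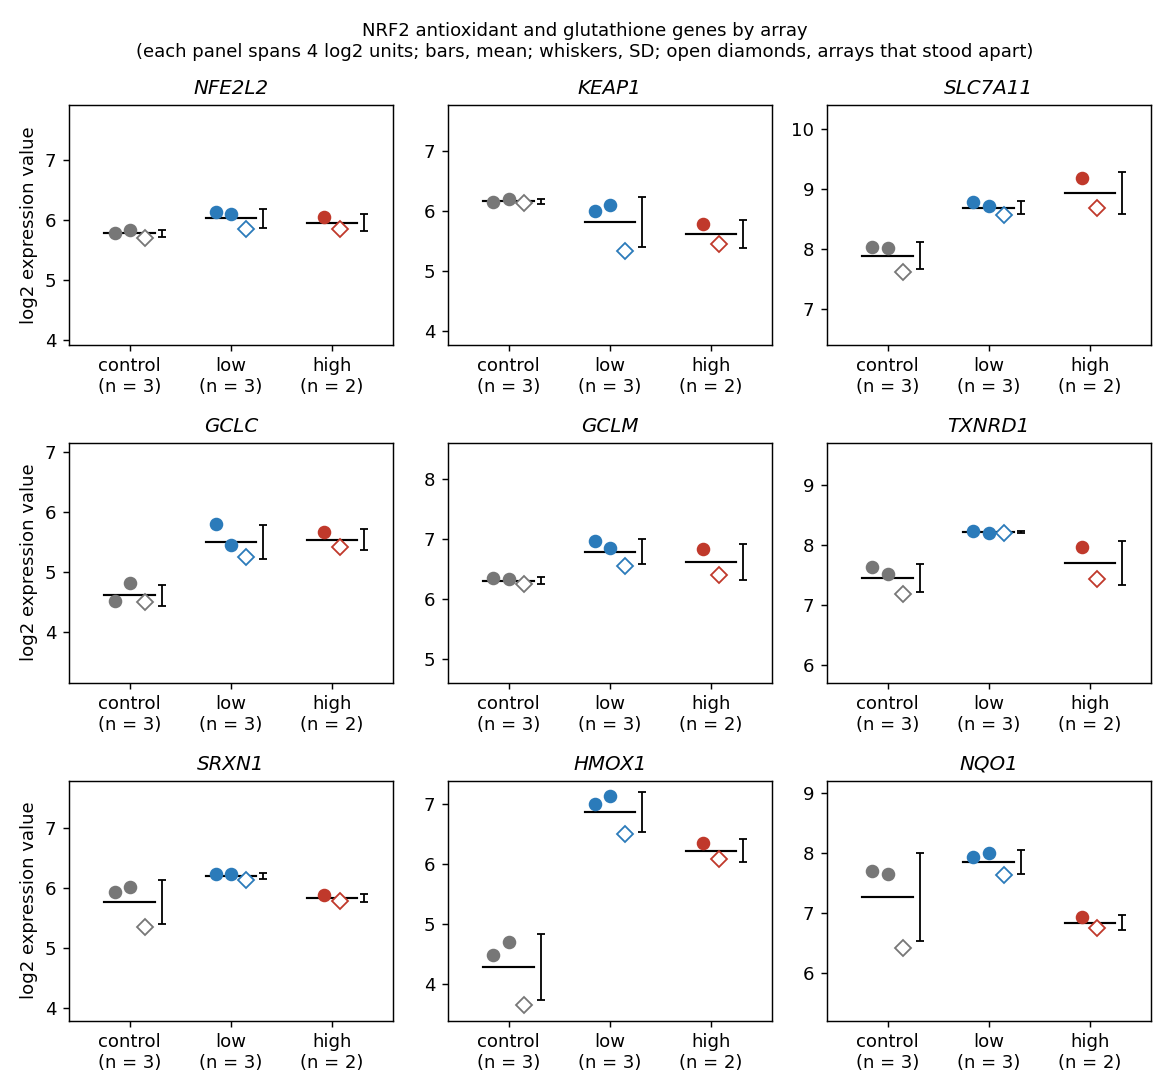
Log2 expression value (y axis, each panel spanning 4 log2 units) of the 9 members on every array, grouped as control, low and high (x axis). Points are arrays, open diamonds mark control 3, low 3 and high 2, bars are means and whiskers the SD. HMOX1 shows the widest gap between treated and control arrays, and NQO1 the widest spread of the controls, from 6.41 to 7.70.

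NFE2L2, which encodes NRF2 itself, had 5.78, 5.83 and 5.70 in the controls, 6.13, 6.09 and 5.84 at the low dose, and 6.05 and 5.85 at the high dose. All treated arrays lay above all controls, though low 3 and high 2 did so narrowly. The log2 change was 0.25 ± 0.15 (SE; 95% interval -0.08 to 0.59; adjusted p = 0.523) at the low dose and 0.18 ± 0.17 (-0.20 to 0.55; adjusted p = 0.684) at the high dose, by limma over 3 against 3 and 2 against 3 arrays. Neither was called.

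KEAP1, the adaptor that targets NRF2 for degradation, had 6.14, 6.20 and 6.12 in the controls, 5.99, 6.10 and 5.33 at the low dose, and 5.77 and 5.45 at the high dose. All treated arrays lay below all controls, and low 3 stood well below the other low arrays. The log2 change was -0.34 ± 0.21 at the low dose (adjusted p = 0.523) and -0.55 ± 0.23 at the high dose (adjusted p = 0.308; 95% interval -1.05 to -0.04), so that neither passed over all genes. Without control 3, low 3 and high 2 these changes were -0.12 and -0.40.

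Of the glutathione genes, SLC7A11, the cystine carrier of the xCT exchanger, had 8.03, 8.01 and 7.62 in the controls, 8.78, 8.72 and 8.56 at the low dose, and 9.18 and 8.68 at the high dose. No treated array overlapped the controls. It rose by 0.80 ± 0.18 at the low dose, a 1.74-fold change (adjusted p = 0.0425), and by 1.05 ± 0.21 at the high dose, a 2.06-fold change (adjusted p = 0.0464). Both calls lay close to the threshold. The low-dose call ended when any 1 control or low array was left out (adjusted p between 0.0725 and 0.153), and the high-dose call ended without any 1 array other than control 3 (0.0521 to 0.208), while the direction held in each case. With every row of the table in the adjustment both calls ended (0.122 and 0.118).

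GCLC, the catalytic subunit of glutamate-cysteine ligase, had 4.52, 4.82 and 4.51 in the controls, 5.81, 5.45 and 5.26 at the low dose, and 5.67 and 5.42 at the high dose. Again no treated array overlapped the controls. It rose by 0.89 ± 0.18 at the low dose (1.85-fold; adjusted p = 0.0247). The high-dose change was as large, 0.93 ± 0.20 (1.90-fold), with an adjusted p of 0.0705 that missed the threshold; it passed in 8 of 19 alternative settings, among them quantile normalization (0.00709) and without control 3 (0.0451). The low-dose call ended without control 1 (0.0965), low 1 (0.107) or low 2 (0.0866), and with the replicate number as a block over the control and low arrays alone (0.0530) or every row of the table in the adjustment (0.0823).

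GCLM, the modifier subunit of the same ligase, had 6.34, 6.32 and 6.24 in the controls, 6.96, 6.84 and 6.55 at the low dose, and 6.82 and 6.40 at the high dose. High 2 lay close above the controls and high 1 well above them. The log2 change of 0.48 ± 0.17 at the low dose was not called (adjusted p = 0.208; 95% interval 0.10 to 0.86), nor was 0.31 ± 0.19 at the high dose (adjusted p = 0.496), which was 0.09 without high 1 and 0.52 without high 2. The low-dose change passed in only 3 of 20 alternative settings. Without control 3, low 3 and high 2 the low-dose change was 0.57 and was called (adjusted p = 0.0421), as it was with quantile normalization (0.58; 0.0168) and array weights (0.54; 0.0174).

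In the thioredoxin arm, TXNRD1, the cytosolic thioredoxin reductase, had 7.64, 7.52 and 7.18 in the controls, 8.23, 8.20 and 8.20 at the low dose, and 7.96 and 7.44 at the high dose. The low arrays were nearly equal and lay above every control, whereas high 2 fell within the range of the controls. The low-dose change of 0.76 ± 0.18 (1.70-fold) missed the threshold narrowly (adjusted p = 0.0509). It passed in 11 of 20 alternative settings, among them quantile normalization (0.0127) and the replicate number as a block over all 8 arrays (0.0281). With the block over the control and low arrays alone, whose pairing by number was not shown, it did not pass (0.0530). At the high dose the change was 0.25 ± 0.20 (adjusted p = 0.615), and it was 0.12 without control 3 and 0.00 without high 1.

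SRXN1, the sulfiredoxin that repairs overoxidised peroxiredoxins, had 5.93, 6.02 and 5.35 in the controls, 6.23, 6.24 and 6.14 at the low dose, and 5.88 and 5.79 at the high dose. The low arrays lay above all controls, and the high arrays lay between control 3 and the other controls. The changes were 0.43 ± 0.19 at the low dose (adjusted p = 0.316) and 0.06 ± 0.21 at the high dose (adjusted p = 0.923). Without control 3 they were 0.22 and -0.15. The high-dose change was also below 0 with array weights (-0.10) and with the replicate block (-0.06), so its direction was not settled.

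HMOX1, the inducible heme oxygenase, had 4.47, 4.70 and 3.65 in the controls, 6.99, 7.12 and 6.49 at the low dose, and 6.35 and 6.08 at the high dose. Every treated array lay more than 1 log2 unit above every control. HMOX1 rose by 2.60 ± 0.27 at the low dose (6.05-fold; adjusted p = 0.00118), where it had the 8th largest rise among the 22109 genes, and by 1.95 ± 0.30 at the high dose (3.86-fold; adjusted p = 0.0164). The low-dose call held in all 20 alternative settings, with changes from 2.28 to 2.81. The high-dose call ended without high 1 (adjusted p = 0.137) or high 2 (0.116), with changes of 1.81 and 2.08, with the high and control arrays alone (0.0660), and with every row of the table in the adjustment (0.0724).

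NQO1, the quinone reductase often used as a marker of NRF2 activity, had 7.70, 7.65 and 6.41 in the controls, 7.92, 7.99 and 7.62 at the low dose, and 6.92 and 6.74 at the high dose. The controls were split, with control 3 below every treated array and the other 2 controls between the low and the high arrays, except that low 3 lay just under them. The change was 0.59 ± 0.30 at the low dose (adjusted p = 0.419) and -0.43 ± 0.33 at the high dose (adjusted p = 0.594), neither of them called. Without control 3 these changes were 0.17 and -0.85, and at the high dose it passed the threshold (adjusted p = 0.0291). The high-dose change passed in 2 of 19 alternative settings. It was smaller with quantile normalization (-0.23, adjusted p = 0.798 in limma) and with the 75th percentile subtracted (-0.24, 0.799).

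**Figure D2:**
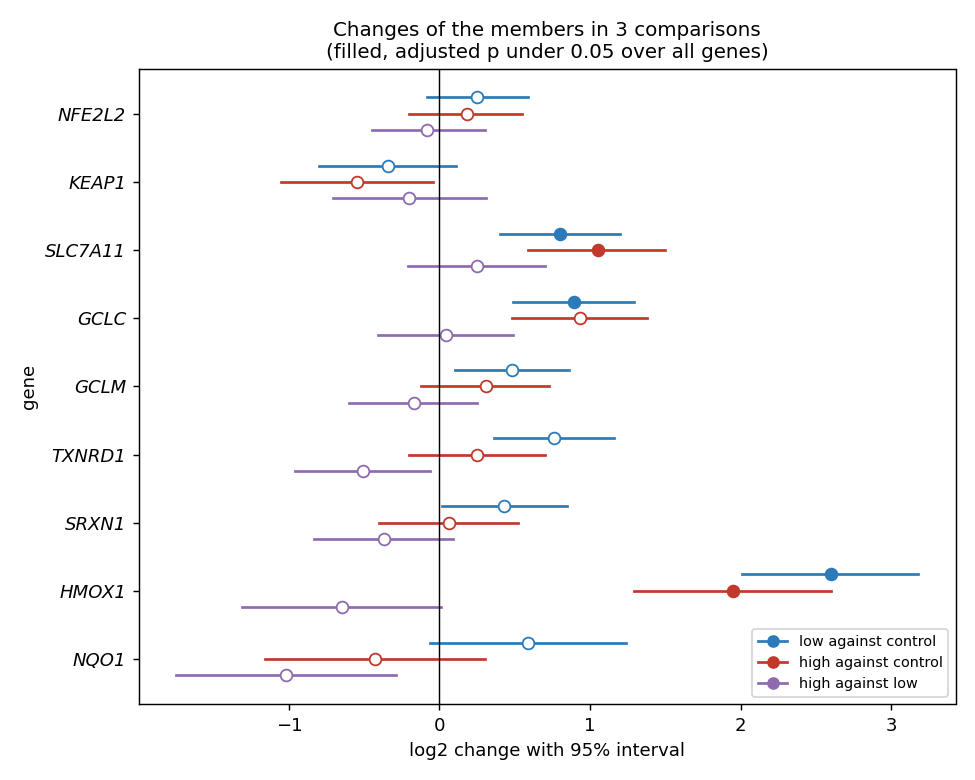
Log2 change (x axis) of each member (y axis) for low against control, high against control and high against low, with 95% intervals as lines. Filled points passed an adjusted p of 0.05 over all genes: HMOX1 and SLC7A11 in both comparisons with controls, and GCLC at the low dose.

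The direct comparison of the high with the low dose called none of the 9 members in limma at an adjusted p under 0.05, where 1 of all genes was called higher and none lower (0.00452% and 0%). At an unadjusted p under 0.05, 2 members were lower, NQO1 and TXNRD1, and none higher, beside 6.10% of all genes lower and 2.56% higher. The widest difference was that of NQO1, with means of 6.83 ± 0.13 at the high dose and 7.85 ± 0.20 at the low dose (SD, n = 2 and 3 arrays). That is a log2 change of -1.02 ± 0.33 (95% interval -1.75 to -0.29; adjusted p = 0.443 in limma). Without control 3, an array of neither group that enters the shared estimate of the spread, the change was again -1.02 and was called (adjusted p = 0.0236). For HMOX1 the change was -0.65 ± 0.30, for TXNRD1 -0.51 ± 0.20 and for SRXN1 -0.37 ± 0.21, and in these 3 genes and NQO1 every high array lay below every low array. Such a separation was seen downward in 16.7% of all genes and upward in 8.77%, and upward in none of the members. The glutathione genes lay nearer to 0: 0.25 for SLC7A11 (95% interval -0.21 to 0.70), 0.04 for GCLC (-0.41 to 0.49) and -0.17 for GCLM (-0.60 to 0.25). No member was shown to differ between the low and high groups, and these intervals do not show that the groups responded alike. By the treatment fields the 2 groups differ in substance, so these differences cannot be read as an effect of dose.

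Other genes of the pathway were taken from 8 lists with 122 entries, also chosen with earlier results of these data known. Of the entries 105 were measured. At the low dose 5 of these rose and 2 fell, beside 1.19% and 1.81% of all genes, and at the high dose 1 rose and 1 fell, beside 0.425% and 0.389%. With the replicate number as a block over the control and low arrays alone, the low-dose calls of MAFF, GPX8 and AKR1C1 ended (adjusted p = 0.0549, 0.0549 and 0.0660). With control 3, low 3 and high 2 left out, those of GPX8 (-1.13; 0.0516) and AKR1C1 (0.74; 0.0559) ended. Among NRF2 regulators and partners, 3 of 12 genes rose and 0 fell at the low dose (median log2 change 0.16), while none was called at the high dose (median -0.15, or 0.04 with the 75th percentile subtracted; 3 higher at an unadjusted p under 0.05). SQSTM1, which encodes p62, a cargo receptor that can sequester KEAP1, had 6.58, 6.79 and 6.57 at the low dose, against 5.56, 5.56 and 4.72 in the controls. It rose by 1.37 ± 0.23 (adjusted p = 0.00917, and 0.0516 without low 2). MAFG, a small MAF partner of NRF2, had 5.88, 5.81 and 5.62 at the low dose, against 4.87, 4.82 and 4.26 in the controls, and rose by 1.12 ± 0.19 (adjusted p = 0.00874). MAFF, another small MAF gene, rose by 0.66 ± 0.15 (adjusted p = 0.0384), a call that ended when any 1 array but low 3 was left out (0.0543 to 0.179). At the high dose the changes of SQSTM1 and MAFG were 0.92 and 0.73, with adjusted p-values of 0.145 and 0.148 in limma. SQSTM1 passed in 3 and MAFG in 2 of 19 alternative settings, among them quantile normalization (0.0261 and 0.0257). The NRF2 relative NFE2L1 changed by 0.13 and -0.17 at the low and the high dose, and CUL3, the scaffold of the KEAP1 ligase, by -0.27 and -0.23, none of them called.

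In the list of glutathione synthesis, turnover and reduction none of 17 genes rose, 2 fell at the low dose and 1 fell at the high dose. The medians were -0.02 and -0.44. In limma at an unadjusted p under 0.05, 1 gene was higher and 4 lower at the low dose, beside 5.38% and 8.77% of all genes. At the high dose 1 was higher and 7 lower, beside 3.03% and 11.4%. CHAC2, a cyclotransferase that degrades glutathione, had 2.98, 3.19 and 2.74 at the low dose, against 3.99, 4.04 and 4.05 in the controls, and 3.06 and 2.95 at the high dose. It fell by 1.06 at the low dose (SE 0.16; adjusted p = 0.00546) and by 1.02 at the high dose (SE 0.18; adjusted p = 0.0277), where the call ended without control 1, control 2, low 1, high 1 or high 2 (0.0612 to 0.233). GPX8, a peroxidase of the endoplasmic reticulum, had 4.77, 4.04 and 3.07 at the low dose, against 5.64, 5.42 and 5.70 in the controls. It fell by 1.63 (SE 0.33; adjusted p = 0.0234), and its call ended without control 1 (0.0749), control 2 (0.0522) or low 2 (0.0779). Glutathione reductase (GSR) changed by -0.02 and 0.02 and glutathione synthetase (GSS) by -0.47 and -0.44 at the low and the high dose, none of them called. Without control 3 the number of genes that fell at the high dose was 3. The share of all genes called lower in that fit is not given here, so this count has no background beside it.

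Of 18 genes for carbonyl, quinone and drug handling, UGDH and AKR1C1 rose at the low dose and UGDH at the high dose, and none fell (medians 0.34 and -0.01, the high-dose one 0.18 with the 75th percentile subtracted). UGDH, which makes UDP-glucuronate for conjugation, had 9.09, 8.96 and 8.81 at the low dose, against 7.71, 7.76 and 7.83 in the controls, and 9.19 and 8.82 at the high dose. It rose by 1.19 ± 0.16 (adjusted p = 0.00333) and 1.24 ± 0.18 (adjusted p = 0.0116), and the high-dose call ended without control 1, control 2, high 1 or high 2 (0.0526 to 0.107). AKR1C1, a carbonyl reductase with near-identical relatives that may share its probes, had 4.55, 4.98 and 5.23 at the low dose, against 4.06, 3.99 and 3.68 in the controls, and 4.03 and 3.93 at the high dose. It rose by 1.01 ± 0.19 at the low dose (adjusted p = 0.0174), a call that ended without low 2 (0.0844) or low 3 (0.0596), and at the high dose its change was 0.07 (adjusted p = 0.917). The difference of AKR1C1 between the high and the low dose was -0.94 ± 0.22 (adjusted p = 0.303 in limma; unadjusted p = 0.00121). The OSGIN1 gene, induced by oxidative stress, changed by 0.54 and 0.22 and was not called.

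**Figure D3:**
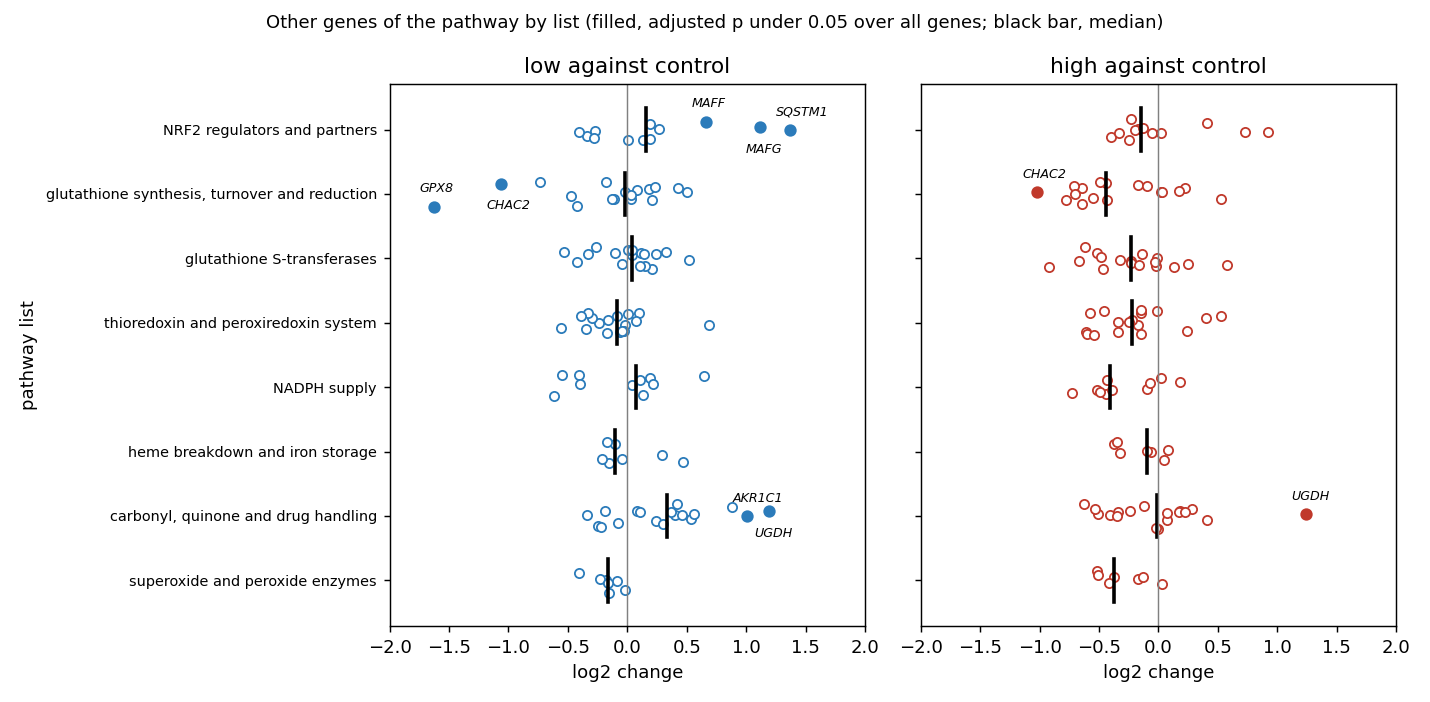
Log2 change (x axis) of the 105 other pathway genes measured, by list (y axis), for low against control on the left and high against control on the right. Filled points passed an adjusted p of 0.05 over all genes and are named, and black bars are medians of the lists. Named at the low dose are MAFF, MAFG, SQSTM1, AKR1C1 and UGDH upward and CHAC2 and GPX8 downward, and the medians of the lists lay between -0.16 and 0.34. At the high dose all 8 medians lay below 0, as did the median over all genes (-0.12). With the 75th percentile of each array subtracted, 3 of the 8 lay above 0, and so did the median over all genes.

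None of the genes in the remaining 5 lists passed in limma at either dose. At an unadjusted p under 0.05, 5.38% of all genes were higher and 8.77% lower at the low dose, and 3.03% and 11.4% at the high dose. For the 17 glutathione S-transferases the medians were 0.04 at the low dose and -0.23 at the high dose, and GSTM2 and GSTM4 had -0.92 and -0.67 at the high dose (adjusted p = 0.244 and 0.163). At an unadjusted p under 0.05 the transferases had 1 higher and 2 lower genes at the low dose, and 1 and 4 at the high dose. For the 17 genes of the thioredoxin and peroxiredoxin system the medians were -0.09 and -0.22 (1 higher and 2 lower, and none and 4, at an unadjusted p under 0.05). The stress-induced SESN2 changed by 0.69 at the low dose (adjusted p = 0.160) and the peroxidase gene PRDX2 by -0.61 at the high dose (adjusted p = 0.202). For the 10 genes of NADPH supply the medians were 0.08 and -0.41 (1 higher and 2 lower, and none and 2), with 0.65 at the low dose for transketolase (TKT, adjusted p = 0.218) and -0.73 at the high dose for the malic enzyme gene ME3 (adjusted p = 0.204). For the 7 genes of heme breakdown and iron storage both medians were -0.10, the high-dose one 0.09 with the 75th percentile subtracted (1 higher and none lower, and none either way), with 0.47 at the low dose for ferritin light chain (FTL, adjusted p = 0.327). The biliverdin reductase gene BLVRA, whose product acts after heme oxygenase, changed by -0.15 and -0.37. For the 7 superoxide and peroxide enzymes the medians were -0.16 and -0.37 (none either way, and none higher and 1 lower), with -0.52 and -0.51 at the high dose for the extracellular superoxide dismutase gene SOD3 and the dual oxidase gene DUOX1 (adjusted p = 0.449 and 0.312). Catalase (CAT) changed by -0.09 and -0.13.

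Genes whose pattern over the 8 arrays was most like that of HMOX1 and GCLC, the members with the largest low-dose changes, were ranked by Pearson's r among the 11054 genes above the median level. For HMOX1 they were the transcription factor gene BHLHE40 (r = 0.993), KLF9 (0.992) and PLIN2, which encodes a lipid droplet coat protein (0.992). For GCLC they were RND3 (0.980), RRAGC, which encodes a Rag GTPase of amino acid sensing (0.974), and HECA (0.974). The log2 changes of BHLHE40 were 1.37 and 0.97 at the low and the high dose, and those of RRAGC 1.69 at both. These correlations are descriptions over 8 points that share arrays and fall into 3 groups.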

How the data were processed

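Total RNA of 8 samples was measured on 1 array each. The authors deposited log2 expression values of 53617 probe sets, made with the Transcriptome Analysis Console per the submitters' processing notes. How probes were summarized and arrays normalized, and the version used, is not stated in those notes. The log2 scale was inferred from the range of the deposited values, which were used unchanged. The table gives no measure of background, so dim genes cannot be told from absent ones. Precision is limited by there being 8 arrays.

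Of the rows, 23558 carried 1 symbol in the platform annotation, 2155 carried several and 27904 were unnamed here. Symbols were updated by Entrez identifier (22271 matched, 3 changed). The row with the highest mean was kept for each of 22109 genes. Groups were taken from the titles. With limma 3.58.1 (R 4.3.3), 1 mean per group was fitted to the 8 arrays (lmFit, contrasts.fit and eBayes, with 5 residual and 6.0 prior degrees of freedom), and p-values were adjusted over all 22109 genes of each comparison by Benjamini-Hochberg. The script was checked on simulated data. The members and lists were chosen with earlier results of these data known, so no p-value is adjusted over a list alone. All 9 members were named. Of each list, up to 4 called genes per direction were named, with up to 2 others of the largest change where none was called. CUL3, NFE2L1, GSR, GSS, OSGIN1, CAT and BLVRA were named for their known roles after their values were seen.

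Deviations from the group means correlated between same-numbered control and low arrays at 0.103, 0.153 and 0.203 across genes. Between differently numbered ones the values were 0.122 (control 1 and low 2) and 0.065 (control 2 and low 1). The other such pairs, with control 3 or low 3, had -0.179 to -0.109. The value of 0.203 joins control 3 and low 3, both arrays that ran lower. Pairing was therefore not shown, and the block over these arrays serves only as an alternative. High 1 correlated at 0.094 with control 1 and 0.214 with low 1. With only 2 high arrays, the deviations of high 2 are those of high 1 with the sign turned. High 2 had -0.049 with control 2 and -0.177 with low 2, signs that are fixed in this way. These values cannot decide whether the numbers pair the high arrays, and the numbers were not taken to do so. Alternatives were quantile, median and 75th percentile normalization, a filter on dim genes, averaged rows, all rows, array weights, a variance trend, the 2 groups alone, the replicate block and leaving out arrays.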

Additional observations from a re-analysis of the deposited data

How the results depend on the processing

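At the low dose the number of members called higher, 3 in the report, was 5 with quantile normalization, 5 with array weights, 5 without control 3, low 3 and high 2, and 1 with every row of the table in the adjustment, where more tests were adjusted for. When 1 array was left out it lay between 1 and 4, and the number called lower was 0. At the high dose the number called higher, 2 in the report, was 0 with every row of the table and 0 with the arrays of the 2 groups alone, and lay between 0 and 3 when 1 array was left out. It was 3 with quantile, median and 75th percentile normalization, with genes above the median level and with array weights. The number called lower at the high dose was 1 without control 3, low 3 and high 2 and lay between 0 and 1 when 1 array was left out. Against the low dose, 1 member, NQO1, was called lower at the high dose with the replicate block (-1.29, adjusted p = 0.0430), 1 without control 3, low 3 and high 2 (-1.04, adjusted p = 0.0414), and 0 to 1 when 1 array was left out. Wherever a high array is left out the high group is 1 array, assumed to vary like the other groups. With the replicate block over all arrays 4 members were called at the low dose, and 2 with the block over the low and control arrays only, a setting added once the data had been seen. At the high dose the block called 3, with GCLC at 0.84 (adjusted p = 0.0413), but the numbers were not taken to pair the high arrays.

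Direction changed only in values that were not called. For high against control these were SRXN1 (-0.10 with array weights, -0.06 with the replicate block, -0.15 to 0.19 with 1 array left out and -0.10 without control 3, low 3 and high 2), AKR1C1 (-0.02 with array weights and -0.04 to 0.15 with 1 array left out) and TXNRD1 (0.00 to 0.51 with 1 array left out). For high against low they were NFE2L2 (0.06 with quantile normalization, 0.01 with array medians subtracted, 0.05 with 75th percentiles subtracted and -0.18 to 0.02 with 1 array left out) and GCLC (-0.02 with array weights, -0.05 with the replicate block and -0.08 to 0.19 with 1 array left out). With 1 array left out, SLC7A11 ran from 0.00 to 0.49 and GCLM from -0.39 to 0.04. In these cases the cause was not tested. Over all genes, quantile normalization gave 621 calls higher and 557 lower at the low dose and 327 and 135 at the high dose, and 75th percentile scaling 459 and 370, and 230 and 61, against 264 and 400, and 94 and 86, in the values as deposited. For the other settings the calls over all genes are not given here. Their counts of members therefore have no such share beside them. Background was not measured, and 2 to 3 arrays a group limit the precision.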

Other observations

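Further rows of the table carry names of the members but were left out of the comparisons by the rule. The other row of SRXN1 with that symbol alone had 2.66, 2.65 and 2.35 at the low dose and 2.92 and 2.30 at the high dose, against 2.84, 2.50 and 2.58 in the controls, so it did not separate the groups. Averaged with the row used, it gave a low-dose change of 0.18 (adjusted p = 0.747 in limma), against 0.43. A row with SRXN1 among several symbols had 1.89, 2.10 and 2.97 at the low dose and 1.96 and 1.98 at the high dose, against 2.19, 1.83 and 1.88 in the controls. The row shared by NFE2L2 and an uncharacterized gene had 3.29, 2.94 and 2.61 at the low dose and 2.73 and 2.59 at the high dose, against 3.26, 3.26 and 3.31 in the controls. Its high-dose values all lay below the controls, whereas the NFE2L2 row used in the report lay above them. These rows were not tested by gene.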
